A study of Mus musculus with 8 samples.

Results

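The genes described here are those carried by the mouse mitochondrial genome. They were taken as every row of the expression table whose symbol begins with mt-, which gave 37 of 52224 genes. These are 13 protein genes, 2 ribosomal RNA (rRNA) genes and 22 transfer RNA (tRNA) genes. RNA sequencing had been done on hematopoietic stem cells sorted from mouse bone marrow as CD48-CD150+LSK cells, that is, lineage-negative, Sca-1-positive and Kit-positive cells that also carry CD150 and lack CD48. The labels place 4 libraries in the genotype group DekCon and 4 in DekTg, repeat these names as the treatment, and give no allele, promoter, strain, age or sex. The series concerns the chromatin protein DEK, replication stress and stem cell function in Fanconi anemia. The comparison made here asks how the transcripts of the mitochondrial genome stand in DekTg against DekCon stem cells. Whether the 4 libraries of a group come from separate mice is not in the labels, so p-values measure the spread between these libraries, which may be technical.

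Mitochondrial DNA is a small circle that codes for a few core subunits of the respiratory chain and for the rRNAs and tRNAs used to translate them. Both strands, called heavy and light, are transcribed into long precursors. The tRNAs lie between the other genes and are cut out, which frees the mRNAs and rRNAs. Respiratory complexes I, III, IV and V combine these subunits with many more that are encoded in the nucleus, while complex II is wholly nuclear. Quiescent hematopoietic stem cells are known for leaning on glycolysis and keeping respiration low. The nuclear genome also holds old copies of mitochondrial DNA, and short reads from a copy that is nearly identical to its source cannot be assigned with certainty.

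Each value below is a normalized read count, that is, the reads of a gene divided by a size factor of the library. Depth is scaled out but gene length is not, and all values of the 37 rows are whole reads divided by that factor. The libraries held between 2525884 and 4101132 reads on genes, and 1 read was worth a value of 0.772 to 1.27. Over all genes, libraries 1 and 4 of each group were closer to each other than to the rest. A chi-square of their counts per degree of freedom was 1.57 in DekCon and 1.67 in DekTg, where 1 is sampling noise alone. Other pairs stood at 3.64 to 8.03. Over the mitochondrial genes alone, libraries 1 and 4 stood at 11.4 in DekCon, against 39.5 to 66.7 for the other DekCon pairs. In DekTg they stood at 55.0, against 22.5 to 77.4 for the other DekTg pairs, so they were not the closest pair. All libraries were kept as separate samples, and results that differ between libraries 1 and 4 and libraries 2 and 3 are given for both. Dek itself averaged 511 ± 100.1 in the DekCon libraries and 2392 ± 403 in those of DekTg (SD, n = 4 each; limma adjusted p = 1.14e-06). Its DekTg values are not whole reads, and no source used here says how they arose. The 10 sort and stem cell identity genes had summed values of 5636 to 7227 in the DekCon libraries and 5165 to 6078 in those of DekTg. At an unadjusted limma p under 0.05, 4 of them were lower in DekTg and 0 higher. The same holds for 3.78% and 3.15% of all genes tested.

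In the GENCODE M21 annotation of GRCm38 (the build also named mm10), 7 of the 13 protein genes have a near-identical copy on chromosome 1. All 7 copies are annotated as pseudogenes, with at least 99% identity over at least 250 bases. They lie one after another on the minus strand in chr1:24611535-24616197, a stretch of 4663 bases that follows bases 6390 to 11042 of the mitochondrial genome. Of the 37 genes, 11 lie wholly inside that stretch, 6 of them protein genes and 5 tRNA genes. The sequences below are from the GENCODE transcripts and show how little separates a member from its copy. The first is mt-Nd4l, a membrane subunit of complex I (mitochondrial bases 9877 to 10173). Its copy Gm10222 is identical over the first 294 of its 297 bases, and the capitals are the bases past the end of the annotated copy.

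mt-Nd4l: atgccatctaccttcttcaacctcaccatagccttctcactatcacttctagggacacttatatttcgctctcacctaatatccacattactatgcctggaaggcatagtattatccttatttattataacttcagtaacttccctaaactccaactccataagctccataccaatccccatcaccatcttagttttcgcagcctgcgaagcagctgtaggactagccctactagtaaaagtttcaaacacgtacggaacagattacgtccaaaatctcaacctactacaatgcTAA

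The next pairs hold the only base differences found between a member and its near-identical copy over the aligned bases, in capitals. The first covers bases 1063 to 1091 of mt-Co1, the catalytic core of complex IV, and its copy Gm29216. The second covers bases 1 to 28 of mt-Nd3, another complex I subunit, and its copy Gm28438. Counted from 1 at the first base of the mitochondrial gene, with its base first, the differences are A1066T and T3C.

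mt-Co1: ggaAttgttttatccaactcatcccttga
Gm29216: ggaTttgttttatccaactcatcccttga
mt-Nd3: atTaacctgtacactgttatcttcatta
Gm28438: atCaacctgtacactgttatcttcatta

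The copies of mt-Atp6 (Gm10925), mt-Co2 (Gm28661), mt-Co3 (Gm28437) and mt-Nd4 (Gm28439) had 0 differences over the 678, 681, 783 and 876 bases compared. A 50-base window was shared with an annotated nuclear transcript at 100% of positions in mt-Co2, 99.9% in mt-Co3, 99.5% in mt-Atp6, 98.8% in mt-Nd4l and 98.0% in mt-Nd3. The share was 62.2% in mt-Nd4, 51.1% in mt-Co1, 8.19% in mt-Nd2, 7.61% in mt-Nd5 and 1.04% in mt-Rnr2, and 0 in the other 27 genes. The copies themselves carried many reads. No source used here says how the authors' counting divided reads between a member and its copy, so the 7 members are reported as uncertain and are also given summed with their copies.

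The final set shows genes that overlap a neighbour. mt-Atp8 (bases 7766 to 7969) shares its last 43 bases, in capitals, with the start of mt-Atp6. mt-Ts1 and mt-Tq are tRNA genes of the light strand, and their capitals are the 3 bases that overlap the heavy-strand genes mt-Co1 and mt-Ti. They are shown because they were the tRNA genes with the most reads. No source used here gives the strand setting of the counting, so reads from genes that overlap on opposite strands cannot be told apart.

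mt-Atp8: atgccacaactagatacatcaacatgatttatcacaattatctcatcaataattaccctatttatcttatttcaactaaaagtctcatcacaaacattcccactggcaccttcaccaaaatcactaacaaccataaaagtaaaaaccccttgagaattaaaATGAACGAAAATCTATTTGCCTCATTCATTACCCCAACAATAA
mt-Ts1: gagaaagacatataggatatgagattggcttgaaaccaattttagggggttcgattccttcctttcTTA
mt-Tq: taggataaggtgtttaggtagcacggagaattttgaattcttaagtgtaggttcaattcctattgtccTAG

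Of the 37 genes, 17 reached a value of 1 in 4 or more of the 8 libraries and were tested. These were all 13 protein genes, both rRNA genes and 2 tRNA genes. None passed the limma test (0 higher and 0 lower at an adjusted p of 0.05 over 37414 genes), where 0.0347% of all genes tested were called. The smallest adjusted p among them was 0.711. At an unadjusted p under 0.05, 3 members had higher DekTg values and 1 had a lower one. The same holds for 3.15% and 3.78% of all genes tested. With edgeR and DESeq2 on the recovered reads, 0 members passed as well. Fold changes below are limma estimates of DekTg minus DekCon, in log2(value + 1), a scale that understates differences of genes with few reads.

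**Figure D1:**
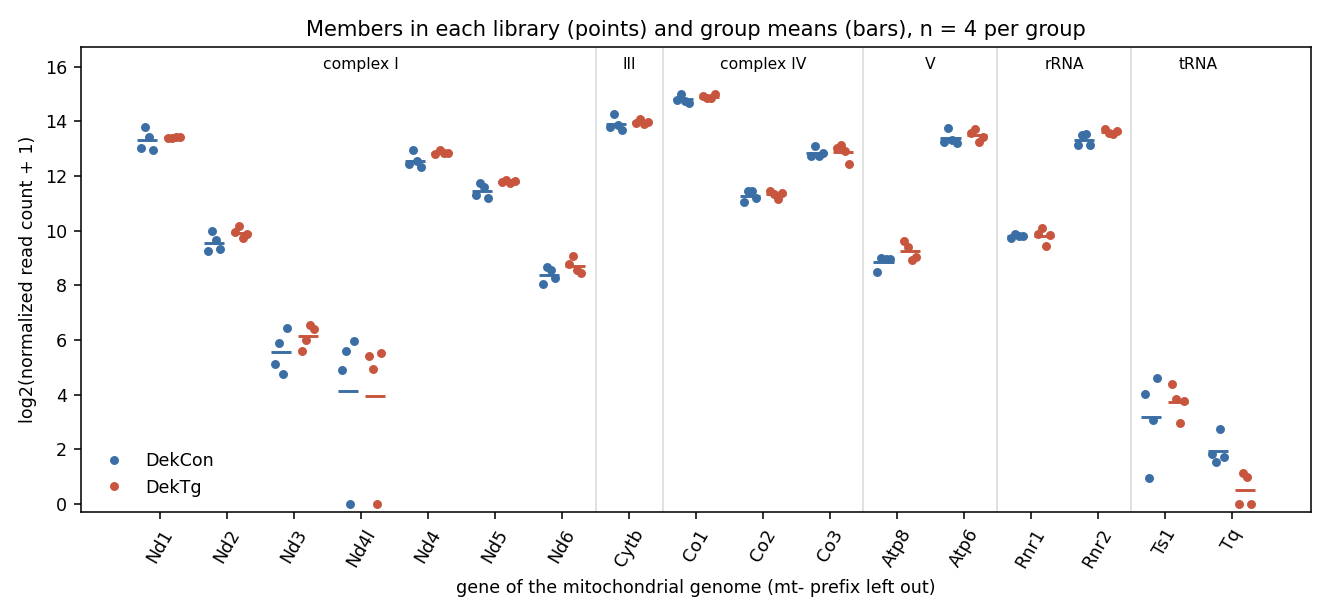
Values of the 17 tested genes of the mitochondrial genome in each library, on a log2 scale (normalized read count + 1), grouped by respiratory complex, rRNA and tRNA; points are libraries, bars are group means, n = 4 per group. Libraries of both groups overlap for every gene but mt-Tq, and mt-Nd4l is at 0 in 1 library of each group.

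Complex I, the NADH dehydrogenase that passes electrons to ubiquinone, has 7 subunits in this genome. mt-Nd1, a membrane subunit next to the ubiquinone site, stood at 8402, 14118, 10961 and 7905 in DekCon libraries 1 to 4 and at 10768, 10688, 10912 and 11046 in DekTg libraries 1 to 4. The DekTg libraries lay close together inside the wide DekCon range. Its log2 fold change was 0.11 (SE 0.17).

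mt-Nd2, mt-Nd4 and mt-Nd5 belong to the proton-pumping membrane arm. For mt-Nd2 the values were 606, 1021, 812 and 639 in DekCon and 989.8, 1145, 848 and 942 in DekTg. For mt-Nd4 they were 5480.3, 7974, 5915 and 5144 in DekCon and 7095, 7852, 7315 and 7255 in DekTg. For mt-Nd5 they were 2543, 3401, 3059 and 2366 in DekCon and 3512, 3682, 3391 and 3632 in DekTg. In all 3 genes DekCon libraries 1 and 4 were the lowest. DekCon library 2 lay within the DekTg range for mt-Nd2 and mt-Nd5 and above all DekTg libraries for mt-Nd4. The log2 fold changes were 0.37 (SE 0.16) for mt-Nd2, 0.29 (SE 0.15) for mt-Nd4 and 0.34 (SE 0.14) for mt-Nd5. The limma adjusted p was 0.711 for mt-Nd2 and mt-Nd5 and 0.736 for mt-Nd4.

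mt-Nd6 is the only protein gene of the light strand. It stood at 261, 406, 373 and 309 in DekCon and at 438, 542, 378 and 346 in DekTg, with a log2 fold change of 0.34 (SE 0.16, limma adjusted p = 0.717). DekTg libraries 3 and 4 lay inside the DekCon range. It shares 14 bases with mt-Nd5 on the opposite strand.

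mt-Nd3 and mt-Nd4l are short membrane subunits with few reads in their own rows. mt-Nd3 stood at 34.2, 58.4, 26.4 and 86.4 in DekCon and at 47.8, 62.5, 93.2 and 84.0 in DekTg, a log2 fold change of 0.58 (SE 0.30). mt-Nd4l stood at 29.2, 47.8, 0 and 61.0 in DekCon and at 41.2, 30.0, 0 and 45.1 in DekTg. A count of 0 allows up to 3 reads by counting error, and library 3 of either group had no read in a gene that others showed at 29.2 or more. The log2 fold change of mt-Nd4l, -0.15 (SE 1.18), was the only one below 0 among protein and rRNA genes, and its error spans both directions.

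Most reads of this mt-Nd4l and mt-Nd3 sequence sat on the nuclear copies. The copy Gm10222 stood at 558, 1007, 871 and 658 in DekCon and at 1004, 1053, 859 and 851 in DekTg. The mt-Nd4l row held 0% to 8.49% of the summed reads of the pair. Summed, the pair had a log2 fold change of 0.29 (SE 0.16, limma adjusted p = 0.747), so its direction was the opposite of that of the row alone. The mt-Nd3 row held 10.6% to 43.8% of its pair, and the sum had a log2 fold change of 0.28 (SE 0.17). The copy of mt-Nd4 covers only its first 876 of 1378 bases, and the mitochondrial row held 99.1% to 99.9% of the reads of that pair. With copies, the 7 complex I genes had log2 fold changes of 0.11 to 0.37 with a median of 0.29, against a median of 0.34 for the rows alone.

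Complex III passes electrons from ubiquinol to cytochrome c, and mt-Cytb, its cytochrome b, is its only subunit in this genome. It stood at 14112, 19680.2, 14980.2 and 13265 in DekCon and at 15647, 17137, 15188 and 16069 in DekTg. DekCon library 2 was the highest of all 8 libraries and the other 3 DekCon libraries were the lowest. It had a log2 fold change of 0.06 (SE 0.16; limma adjusted p = 0.954). No near-identical nuclear copy was found for it.

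Complex IV, cytochrome c oxidase, reduces oxygen to water, and mt-Co1, mt-Co2 and mt-Co3 form its core. mt-Co1 was the member with the highest value in every library, with 27894, 32962, 27564 and 25914 in DekCon and 31136, 29532, 29280.1 and 32505 in DekTg. The group ranges overlapped through DekCon library 2. Its copy Gm29216, which matches only the last 483 of 1545 bases, stood at 3209.8, 3519.6, 2962 and 3411 in DekCon and at 5233, 4321, 3809 and 4874 in DekTg. The groups did not overlap for this copy, as for 2.09% of all genes tested in that direction, and the limma estimate was 0.47 (SE 0.13, adjusted p = 0.707). For the mt-Co1 row the log2 fold change was 0.10 (SE 0.16), and for the sum it was 0.15 (SE 0.17).

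mt-Co2 carries the copper center that takes electrons from cytochrome c. It stood at 2122, 2759.8, 2773 and 2313 in DekCon and at 2828, 2615, 2276 and 2627 in DekTg, and the ranges overlapped widely. Its row held only 35.7% to 45.8% of the reads of the pair with Gm28661. The log2 fold change was 0.06 (SE 0.13) for the row and 0.19 (SE 0.15) for the sum.

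For mt-Co3 the part of the pair that lay on the row differed from library to library, as it did for mt-Nd3. Why it differed was not tested. Its row stood at 6853, 8639, 6869 and 7326 in DekCon and at 8377, 8865, 7771 and 5609 in DekTg. Its copy Gm28437 stood at 2956, 4277, 4342 and 2458 in DekCon and at 3471, 2546, 2851 and 5892 in DekTg. DekTg library 4 was the lowest library for the row and the highest for the copy, and DekTg library 2 was the highest for the row. The row held 48.8% to 77.7% of the pair. The sums were 11848, 11411, 10622 and 11501 in DekTg, a narrow range, with a log2 fold change of 0.06 (SE 0.15).

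**Figure D2:**
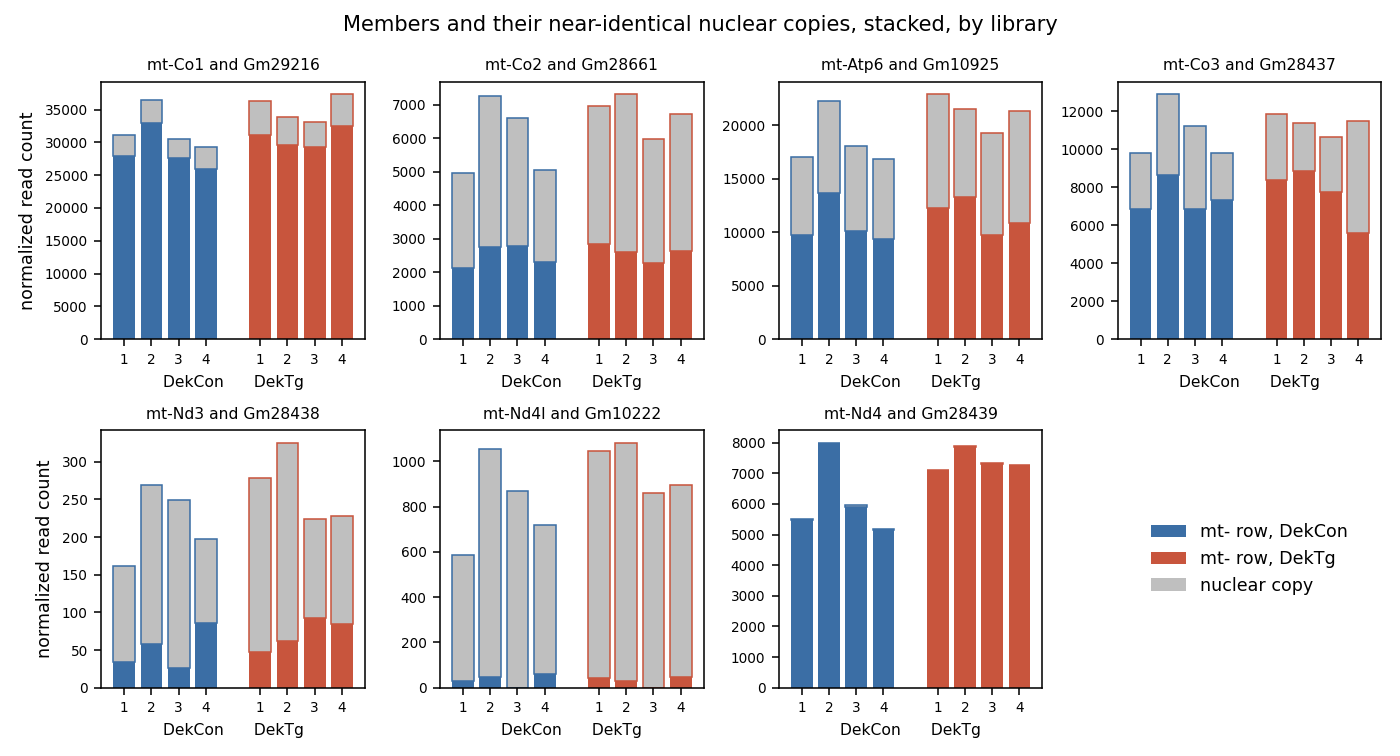
Normalized read counts of the 7 protein genes with a near-identical nuclear copy (solid) with the copy stacked on top (grey), per library; the vertical scale differs between panels and starts at 0. The copy holds most of the pair for mt-Nd4l in every library, almost none for mt-Nd4, and a share that differs between libraries for mt-Co3.

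Complex V, the ATP synthase, has mt-Atp6, which forms the proton channel, and the small mt-Atp8 in this genome. mt-Atp6 stood at 9697, 13714, 10089 and 9336 in DekCon and at 12243, 13293, 9716 and 10847 in DekTg. Its row held 50.4% to 61.8% of the pair with Gm10925, and the log2 fold change was 0.11 (SE 0.16) for the row and 0.20 (SE 0.16) for the sum. mt-Atp8 stood at 359, 515, 496 and 497 in DekCon and at 790.4, 667, 481 and 527 in DekTg. DekTg libraries 1, 2 and 4 lay above all DekCon libraries, while DekTg library 3 lay inside their range. It had a log2 fold change of 0.39 (SE 0.16; limma adjusted p = 0.711). mt-Atp8 lies in the stretch that continues on chromosome 1, in a gap between annotated copies, and that gap was not read here.

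Summing each of the 7 pairs lowered the spread over the 8 libraries (the SD divided by the mean) below that of the mitochondrial row in 5 pairs. Another 8 pseudogenes matched members at 90% to 99% identity and had low values, the highest being Gm4076, a relative of mt-Nd5, with a mean value of 43.2. They were left out of the sums.

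The mitochondrial ribosome is built on mt-Rnr1 and mt-Rnr2, the small and the large rRNA. mt-Rnr2 stood at 8929.7, 11468, 11987 and 8942 in DekCon and at 13549, 12294, 11741 and 12754 in DekTg. DekCon libraries 1 and 4 were low, and only DekTg library 3 lay within the DekCon range. It had a log2 fold change of 0.30 (SE 0.15; limma adjusted p = 0.73). mt-Rnr1 stood at 851, 928, 897 and 902 in DekCon and at 949, 1079.8, 701 and 919 in DekTg, with a log2 fold change of 0.01 (SE 0.13). DekTg library 3 was the lowest and DekTg library 2 the highest of all 8. Per kilobase of gene, mt-Rnr2 stood 6.96 ± 0.97 times above mt-Rnr1 in DekCon and 8.50 ± 1.33 times in DekTg (SD, n = 4 each), and the ranges overlapped. The labels say that mRNA was reverse-transcribed, so this ratio of reads need not be that of the rRNAs in the cells.

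The tRNA genes were close to absent. They are 59 to 75 bases long, and all 22 together had 137 of 831586 mitochondrial reads over the 8 libraries. No read was found for 14 of them in any library. The light strand carries 8 tRNA genes, of which 6 had reads, 135 in all, and the heavy strand carries 14, of which 2 had 1 read each. The labels say that mRNA was reverse-transcribed, and at this depth levels of tRNA cannot be read from these libraries. mt-Ts1, a serine tRNA gene, had 105 of the reads and stood at 15.2, 0.957, 7.54 and 23.2 in DekCon and at 19.8, 13.2, 6.79 and 12.6 in DekTg. Its log2 fold change of 0.56 had an SE of 0.60.

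mt-Tq, the glutamine tRNA gene, had 15 reads in all. It stood at 2.54, 1.91, 5.65 and 2.32 in DekCon and at 0, 1.20, 0.97 and 0 in DekTg. It was the only tested member whose groups did not overlap, a pattern found in the same direction for 1.88% of all genes tested. The limma estimate was -1.43 (SE 0.54, adjusted p = 0.711), and it depends on the pseudocount, with -3.09 at 0.1 and -0.31 at 10. mt-Tc, a cysteine tRNA gene, had values of 0, 0.957, 2.83 and 0.772 in DekCon and 0, 2.40, 0 and 0 in DekTg. mt-Te, a glutamate tRNA gene, had values of 0, 0, 1.88 and 0.772 in DekCon and 1.65, 1.20, 0 and 0 in DekTg. mt-Ta, mt-Tl1, mt-Tp and mt-Tv had 1 read each.

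**Figure D3:**
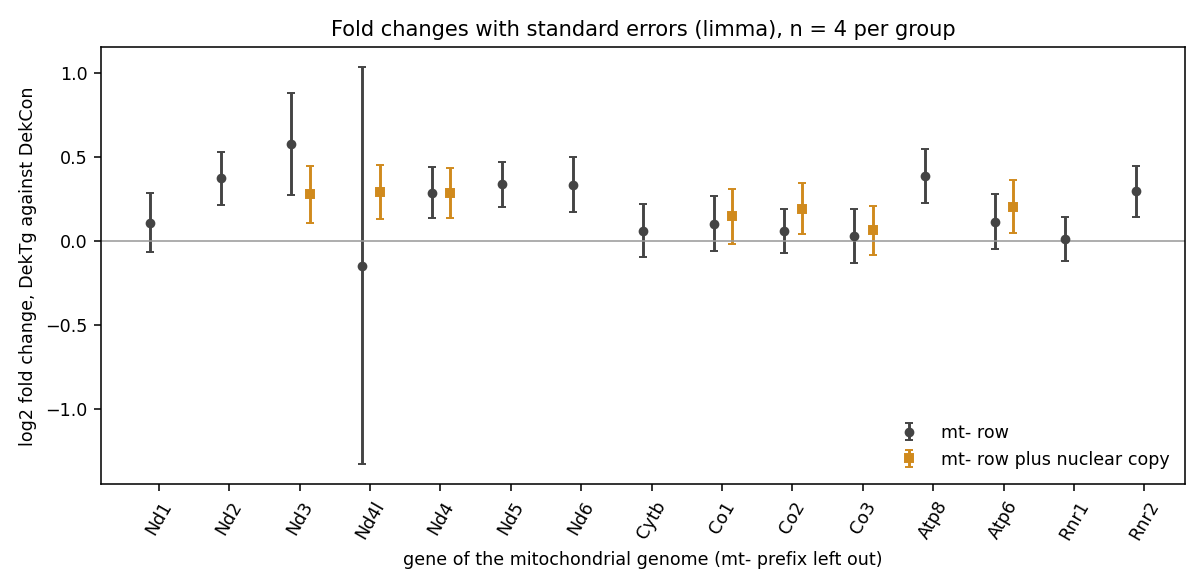
Log2 fold changes (DekTg minus DekCon) of the 13 protein and 2 rRNA genes with standard errors from limma, for the mitochondrial row (circles) and, for the 7 genes with a copy, the row plus the nuclear copy (squares); n = 4 per group. Most values lie between 0 and 0.6; the row of mt-Nd4l has a standard error of 1.18, and the sum with its copy lies at 0.29.

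Across the 15 protein and rRNA genes, 14 had a log2 fold change above 0, with a median of 0.11. With nuclear copies all 15 lay above 0, with a median of 0.28. Of all genes tested, 50.6% lay above 0 and the median was 0.01. Among the 7602 genes with a mean value of at least 100, 29.0% lay above 0, with a median of -0.10. These 15 genes come from a few shared precursors and are not independent of each other. Other scalings moved the median of all genes by at most 0.09 and turned the direction of no protein or rRNA member. Under quantile normalization mt-Co1 and mt-Cytb stood at 0.00, as this scaling gives a gene of unchanged rank the same value in every library. It could show no direction for these genes. Without DekCon library 2 the median of the 15 rows was 0.35, and without DekTg library 3 it was 0.29. The difference also lay mainly between libraries 1 and 4 of the groups. There the median was 0.30 with 14 of 15 genes above 0, against 0.04 with 8 of 15 above 0 between libraries 2 and 3.

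The mitochondrial genes took 2.75, 3.34, 3.14 and 2.69% of all reads in DekCon and 3.66, 3.45, 3.25 and 3.51% in DekTg. Means of 2.98 ± 0.31% and 3.47 ± 0.17% (SD, n = 4 each) gave a difference of 0.487 percentage points. DekTg library 3 lay below DekCon library 2, so the groups overlapped. Between libraries 1 and 4 the means were 2.72% and 3.59%, and between libraries 2 and 3 they were 3.24% and 3.35%. With nuclear copies the shares were 3.57 ± 0.37% and 4.23 ± 0.26%. The copies alone took 0.588 ± 0.064% and 0.766 ± 0.109%, without overlap. Of the values of single copies, only those of Gm29216 did not overlap. Log2 fold changes of the copies ran from -0.58 for Gm28439 to 0.47 for Gm29216. Of all genes tested, 2.09% lay higher in DekTg without overlap, and no such rate was taken for sums of genes. In RNA from sorted pools, fewer cells of a type and less RNA per cell cannot be told apart, and a share of reads also moves with every other transcript.

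By class, protein genes took 2.63 ± 0.28% of all reads in DekCon and 3.02 ± 0.14% in DekTg, and rRNA genes took 0.347 ± 0.052% and 0.443 ± 0.038%. Complex IV had 1.19 ± 0.06% and 1.34 ± 0.07%, and was the only complex whose shares did not overlap between groups. Its DekCon libraries lay between 1.12% and 1.26% and its DekTg libraries between 1.28% and 1.43%, so the gap was narrow. The values of mt-Co1, mt-Co2 and mt-Co3 each overlapped between groups, with log2 fold changes of 0.03 to 0.10. Of all genes tested, 2.09% lay higher in DekTg without overlap, and no such rate was taken for sums of genes. Complex I had 0.629 ± 0.118% and 0.763 ± 0.016%. Complex III had 0.476 ± 0.062% and 0.524 ± 0.021%. Complex V had 0.343 ± 0.043% and 0.398 ± 0.053%. In complexes I and III the DekTg libraries were closer together than the DekCon libraries.

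**Figure D4:**
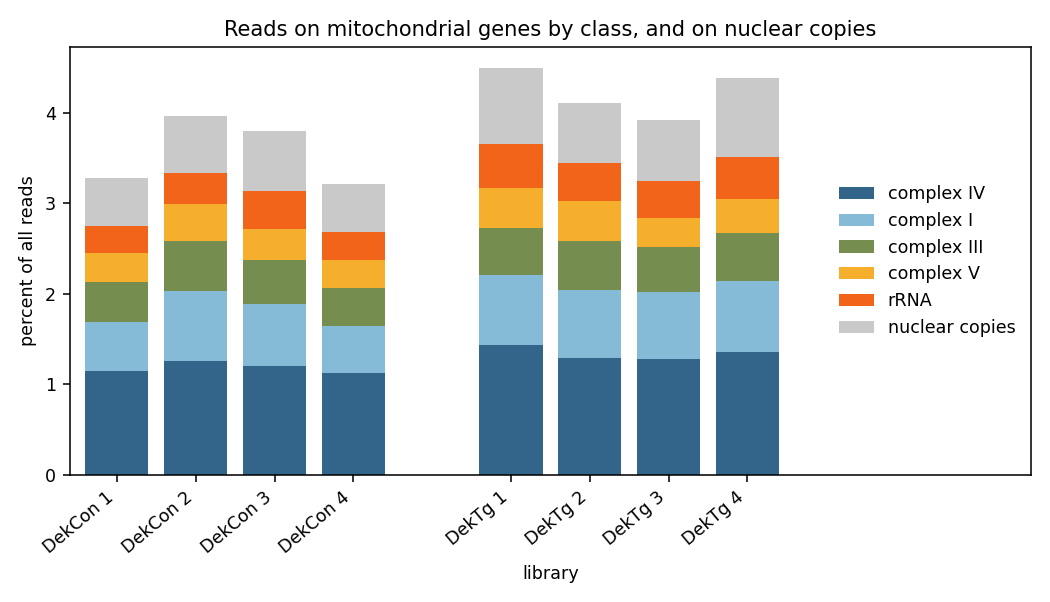
Percent of all reads on the mitochondrial genes of each complex and on rRNA, stacked, with the 7 nuclear copies on top in grey, per library; tRNA genes are too low to draw. DekCon libraries 1 and 4 are the lowest, and DekCon libraries 2 and 3 reach heights close to those of DekTg libraries 2 and 3.

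Within the mitochondrial reads, the shares of the classes and of the complexes overlapped between the groups. Of these reads, 88.4 ± 1.2% lay on protein genes in DekCon and 87.2 ± 0.5% in DekTg. mt-Co1 alone took 29.6 ± 1.7% and 29.0 ± 1.6%. Complex I took 21.0 ± 1.7% and 22.0 ± 0.7%, and complex IV took 39.9 ± 2.2% and 38.6 ± 0.8%. mt-Nd5 took 2.88, 2.89, 3.16 and 2.78% in DekCon and 3.24, 3.36, 3.39 and 3.45% in DekTg, so the groups did not overlap. Its means of 2.93 ± 0.16% and 3.36 ± 0.09% were chosen for mention after the values were seen and were not tested.

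Levels of different genes can be set side by side only per length. Length scaling does not correct for how well each RNA was captured. The labels say that mRNA was reverse-transcribed, and capture of each RNA was not tested. The order below is therefore one of reads per length, above all for the places of the rRNA genes. Per kilobase, the mean DekCon levels ran from mt-Co1 at 18501 through mt-Atp6, mt-Cytb, mt-Nd1, mt-Co3, mt-Rnr2, mt-Nd4, mt-Co2, mt-Atp8, mt-Nd5, mt-Rnr1, mt-Nd2, mt-Nd6 and mt-Nd3 to mt-Nd4l at 116. The highest was 159 times the lowest. Of the 14 pairs of neighbours in this order, 9 stood the same way in all 8 libraries. mt-Co1 and mt-Atp6, mt-Nd1 and mt-Co3, mt-Co3 and mt-Rnr2, mt-Rnr1 and mt-Nd2, and mt-Nd3 and mt-Nd4l did not.

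With nuclear copies added, 11 of 14 neighbours kept their order in all libraries. mt-Atp6 then came first, at 27239.9 per kilobase in DekCon, and mt-Nd4l moved from the last place to the ninth, at 2719. mt-Nd4l and mt-Nd4 share 7 bases and are carried on 1 mRNA. Per kilobase, mt-Nd4 stood 1.67 ± 0.24 times above mt-Nd4l in DekCon and 1.66 ± 0.17 times in DekTg once copies were added. For the rows alone the ratio ran from 18.2 to 56.4 in the 6 libraries where mt-Nd4l had reads. mt-Atp6 and mt-Atp8 also share an mRNA, and there the rows stood closer, with mt-Atp6 6.95 ± 1.27 times above mt-Atp8 in DekCon and 5.71 ± 0.72 times in DekTg. With the copy of mt-Atp6 this ratio was 12.1 ± 1.9 and 10.6 ± 1.7, but no copy of mt-Atp8 could be added.

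The mitochondrial genome depends on nuclear genes for its upkeep and for the rest of each complex. In 10 lists of such genes, 152 genes were tested. No gene passed the limma test, where 0.0347% of all genes did. At an unadjusted p under 0.05, 0 were higher and 10 lower in DekTg, against 3.15% and 3.78% of all genes tested. Of the 152, 26 had a log2 fold change above 0, and the median was -0.16. For all genes tested 50.6% lay above 0, and for those with a mean value of at least 100 it was 29.0%.

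Transcription of the mitochondrial genome is run by a polymerase and its factors, such as Polrmt and Tfam. Of 10 such genes, 4 lay above 0, with a median of -0.10. The smallest p were those of Mterf1a at -0.42 (SE 0.25) and Mterf4 at -0.21 (SE 0.15), members of a family that binds mitochondrial DNA or rRNA. Of 16 genes of mitochondrial DNA replication and upkeep, 6 lay above 0, with a median of -0.08. Mgme1, a mitochondrial exonuclease, stood at -0.24 (SE 0.13) and Twnk, the mitochondrial helicase, at -0.34 (SE 0.21). Of 7 regulators of mitochondrial biogenesis, 3 lay above 0, with a median of -0.04. The transcription factor Yy1 stood at -0.29 (SE 0.14) and the coactivator Pprc1 at -0.31 (SE 0.20).

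Of 20 genes that process or stabilise mitochondrial RNA, 5 lay above 0, with a median of -0.09. Fastkd3 belongs to a family of mitochondrial RNA-binding proteins. It stood at 71.0, 68.9, 62.2 and 74.1 in DekCon and at 19.0, 43.2, 36.9 and 28.3 in DekTg. Every DekTg library lay below every DekCon library, as for 1.88% of all genes tested. The limma estimate was -1.15 (SE 0.23, adjusted p = 0.208), which did not pass. It passed in 4 of 27 alternatives, with an adjusted p of 0.033 with limma library weights, 0.0325 with DESeq2, 0.036 with DESeq2 without independent filtering and 0.0382 with limma without DekTg library 2. Over all alternatives the adjusted p of Fastkd3 from limma, edgeR or DESeq2 ranged from 0.0325 to 0.896. Tbrg4, of the same family, stood at -0.32 (SE 0.15).

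Of 24 genes that charge or modify mitochondrial tRNA, 4 lay above 0, with a median of -0.15. Tars2, the mitochondrial threonine tRNA synthetase, stood at -0.38 (SE 0.14) and Pus1, a pseudouridine synthase, at -0.54 (SE 0.21). DekTg library 2 was the lowest for Pus1, at 66.1 against 105.8 to 150.0 in the other DekTg libraries. Both had a limma adjusted p of 0.711.

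The nuclear subunits of the respiratory complexes lay below 0 in most cases. Of 75 such genes, 4 had a log2 fold change above 0, and the median was -0.19, while the 13 mitochondrial subunits lay above 0 once copies were added. No nuclear subunit passed the limma test. The median was -0.20 over 36 complex I genes, -0.20 over 4 complex II genes, -0.18 over 9 complex III genes, -0.18 over 11 complex IV genes and -0.21 over 15 complex V genes. As given above, most genes with a mean value of at least 100 lay below 0 in this comparison, with a median of -0.10.

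Uqcrc1, a core protein of complex III, stood at 1142, 1294, 885 and 1020.3 in DekCon and at 821, 490.1, 772 and 793 in DekTg. The limma estimate was -0.61 (SE 0.16, adjusted p = 0.654). The groups did not overlap, as for 1.88% of all genes tested in that direction. Uqcr11, a small subunit of the same complex, stood at -0.46 (SE 0.16), also without overlap. In complex I, Ndufb7 stood at -0.58 (SE 0.19) and Ndufs7 at -0.40 (SE 0.17). In complex II, Sdhb stood at -0.31 (SE 0.16) and Sdha at -0.21 (SE 0.12). In complex IV, Cox6a1 stood at -0.30 (SE 0.19) and Cox5b at -0.25 (SE 0.16). In complex V, Atp5g1 stood at -0.40 (SE 0.17) and Atp5e at -0.34 (SE 0.16). None of these genes passed.

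**Figure D5:**
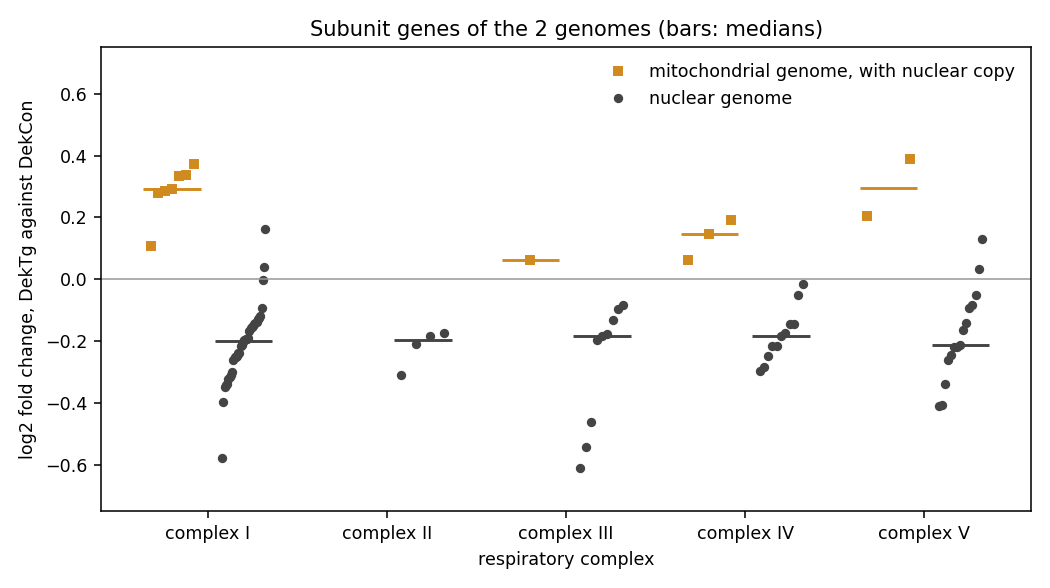
Log2 fold changes (DekTg minus DekCon) of respiratory subunits by complex, for genes of the mitochondrial genome with their nuclear copy where there is one (squares) and for nuclear genes (circles); bars are medians. The mitochondrial subunits lie between 0.06 and 0.39, and all but 4 of the 75 nuclear subunits lie below 0; no gene shown passed the test.

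Markers of other cells differed between the groups and between libraries. Of all genes tested, 0.0347% were called and 50.6% lay above 0. Among those with a mean value of at least 100, 29.0% lay above 0. Of 12 B and plasma cell genes, 10 lay above 0 and 2 passed, Igkc at 3.05 (limma adjusted p = 3.87e-05) and Jchain at 2.31 (limma adjusted p = 0.00021). Ighm, the highest of them, was at 3.82 (limma adjusted p = 0.208). The summed value of this list ran from 1124 to 1948 in DekCon and from 5124 to 5970.1 in DekTg. Of 12 erythroid genes, 8 lay above 0 and 3 passed, Hbb-bs at 3.14, Hba-a2 at 3.57 and Hba-a1 at 2.34 (the largest limma adjusted p was 0.000515). Their sums overlapped, at 2194 to 4432 and 2489 to 4025, and Car2 was the highest of them, at -0.14.

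Granulocyte and megakaryocyte genes split the libraries of each group. The 9 granulocyte genes summed to 4244, 11131, 11284 and 4314 in DekCon and to 2458, 5235, 17005 and 2380.2 in DekTg, and 0 of 9 lay above 0. Mpo was at -0.90 (SE 0.39). The 7 megakaryocyte and platelet genes summed to 2876, 10216, 5262 and 3079 in DekCon and to 2199.7, 3629, 3575 and 2257 in DekTg, and 0 of 7 lay above 0. Pf4 was at -0.73 (SE 0.41). At an unadjusted limma p under 0.05, 5 megakaryocyte and platelet genes and 2 granulocyte genes were lower in DekTg, and 0 were higher. The same holds for 3.78% and 3.15% of all genes tested. Libraries 2 and 3 were the high ones for both lists in both groups.

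Of the other lists, 6 of 7 monocyte and macrophage genes lay above 0, with sums of 973 to 1457 in DekCon and 1104 to 2733 in DekTg and Lyz2 at 0.26. Of 8 T and NK cell genes, 6 lay above 0, with sums of 562 to 957 and 488 to 683 and Nkg7 at -0.50. All 5 genes of lineages that the sort leaves out lay above 0, with sums of 266 to 491 and 362 to 523 and Cd48 at 0.14. Of the 10 sort and identity genes, 4 lay above 0, with Meis1 at -0.29. No gene of these lists was at 0 in all libraries. The part of other cells in the mitochondrial values was not tested.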

How the data were processed

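Total RNA from sorted stem cells was amplified by Geo-seq and made into libraries by tagmentation, per the labels' protocols. The submitters' processing notes name the build mm10 and the tools Bowtie 0.12.9, Cufflinks 2.1.1, DESeq2 and HTSeq, without roles. The annotation and strand setting are not stated there or in the labels. The deposited table is named for FPKM, but its signal values are gene read counts divided by 1 size factor per library: 99.99% of 417792 values were whole reads (tolerance 0.001 reads), and 25 values in 6 genes were not. The planned test, made for normalized values, was kept.

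Genes with a value of at least 1 in at least 4 libraries were compared with limma 3.58.1 (R 4.3.3; log2(value + 1), mean-variance trend, two-sided, no covariates). P-values were adjusted over all 37414 genes by Benjamini-Hochberg, with a threshold of 0.05. On simulated counts of 22615 genes for this comparison, 85% of 2-fold and 100% of 4-fold changes were recovered, with 8 false calls. These counts had a fixed dispersion (spread between libraries beyond counting error) of 0.03, and changes were placed only in genes of higher mean value. Recovery at the spread of the real libraries, or for genes with few reads, was not tested. Alternatives were other filters, pseudocounts, limma options and scalings, edgeR 4.0.16 and DESeq2 1.42.0 on recovered reads, a replicate block and leaving out each library. Sums with nuclear copies, the split and the averaging of libraries 1 and 4, and leaving out the 6 genes were chosen after seeing the data. Copies were found with BLAST 2.17.0 among GENCODE M21 transcripts.

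The members and lists were chosen with earlier results of these data known. All protein and rRNA members, the 4 tRNA genes of highest mean, each list's called genes or else its 2 of smallest p, and from each marker list the called genes and the highest one are named, as are nuclear copies with over 50 reads in all among the near-identical ones. Reads carry no molecular identifiers, so counting limits cover counting error only.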

Additional observations from a re-analysis of the deposited data

Results flagged for a closer look

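In 82 sets of 4 libraries checked for a library far from the others, 2 stood out, and chance alone gives about 1 in 20. For mt-Atp8, DekCon library 1 had a value of 359 while the other 3 DekCon libraries lay between 496 and 515. For mt-Tq, DekCon library 3 had a value of 5.65 while the other 3 DekCon libraries lay between 1.91 and 2.54. mt-Tq had 15 reads in all libraries together.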

How the results depend on the processing

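The count of mitochondrial genes past the threshold was 0 in each of 27 alternatives, the replicate block included, with a smallest adjusted p of 0.22 for any member. Same-numbered libraries of the groups deviated together hardly at all (correlations of 0.01 to 0.07), so the numbers were not taken as pairs. The block called 15 genes in the whole table against 13 without it and 0 pathway genes. Over the whole table, 4 genes were called without the trend, 22 without DekTg library 2, 8 without the 6 genes with values that are not whole reads, and 9 with edgeR. The pathway count was 1 (Fastkd3) with library weights, with DESeq2 and with DESeq2 without independent filtering, and 0 to 1 over the fits that left out a library each. It was 1 without DekTg library 2. The difference in mitochondrial share was 0.867 points for libraries 1 and 4, 0.108 for libraries 2 and 3, 0.361 with libraries 1 and 4 averaged, and 0.389 to 0.608 with a library left out. mt-Rnr1 turned to -0.0176 with library weights and to -0.0154 with libraries 1 and 4 averaged, mt-Co2 turned to -0.0215 with that averaging, and mt-Nd4l turned to 0.29 when summed with its copy. Leaving out a library gave ranges across 0 for mt-Rnr1 (-0.0752 to 0.13), mt-Nd1 (-0.00826 to 0.27), mt-Ts1 (-0.17 to 1.04), mt-Co2 (-0.0154 to 0.12), mt-Co3 (-0.0478 to 0.17), mt-Nd4l (-1.52 to 1.17) and mt-Cytb (-0.00801 to 0.18). The cause of these turns was not tested. The tRNA genes had the fewest reads of the members, and why was not tested. For mt-Nd4l and mt-Nd3 the nuclear copies held most of each pair, and how the reads were divided is not known.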
